A study of Mus musculus with 5 samples.

Results

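Macroautophagy encloses cytoplasm in a double membrane, the autophagosome, and delivers it to lysosomes for breakdown. 41 genes of this machinery and of mitophagy, the selective removal of mitochondria by the same route, were followed in plasma cells (PCs) from mouse bone marrow, measured ex vivo and after culture. The genes were listed by name and not by their values: the ULK kinase complex that starts the process, the class III PI3K complexes, the membrane suppliers, the enzymes that couple ATG8 proteins to lipid, the ATG8 proteins themselves, the receptors that bind cargo, the mitophagy receptors, and lysosomal proteins with their regulator Tfeb. 39 of the 41 genes were measured on the arrays, and all 39 passed the filter on dim signals. They stand among 13578 tested genes. Optn has no probe set listed here. The 3 probe sets of Bnip3l, a mitophagy receptor related to Bnip3, are shared with its pseudogene Bnip3l-ps, so no value is given for it.

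PCs secrete antibody at a high rate, and autophagy is known to limit their endoplasmic reticulum and to sustain long-lived PCs. Bnip3, Bnip3l and Fundc1 sit in the outer mitochondrial membrane and bind ATG8 proteins directly, whereas Pink1 is a kinase that marks damaged mitochondria for ubiquitin-binding receptors such as p62, the product of Sqstm1. BNIP3 is a known target of the hypoxia-inducible factor HIF1.

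The ex vivo group held 2 arrays, 1 from each of 2 experiments. Its PCs were isolated from the bone marrow of C57BL/6J mice immunised with NP-CGG, by magnetic removal of cells bearing B220 or CD49b and enrichment of cells high in CD138. The cultured group held 3 arrays of PCs isolated in the same way and then co-cultured over 3 days with ST2, a stromal line from mouse bone marrow, plus the cytokine APRIL at physiological oxygen levels, before they were sorted by flow cytometry. Cultured replicate 1 came from experiment 1 and cultured replicates 2 and 3 from experiment 2. Isolation therefore differed between the groups, magnetic ex vivo and flow sorting after culture. Isolation, time in culture, stromal contact, APRIL and oxygen level cannot be told apart. The question was which autophagy genes differed in level between PCs ex vivo and after culture, and whether the core ATG genes and the mitophagy receptors did so alike.

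The arrays were alike in brightness, with median intensities from 87.05 to 94.19. The 9 PC markers, among them Sdc1, Prdm1 and Irf4, were measured in every array at summed intensities of 61200 and 61600 ex vivo and 55900 to 56600 in culture, and none passed limma's test for culture. Of 23 tested stromal cell markers, 6 were under the filter's floor (an intensity of 50, or 5.64 on the log2 scale) in both ex vivo arrays and so passed the filter only through the cultured ones, Cxcl12 and Col6a1 among them. Of the other 17, 9 rose in culture with the experiment as a block, Col1a2 among them, against 1.13% of all tested genes. Over all 26 measured markers of the list, the 6 under the floor ex vivo included, summed intensities were 1730 and 1340 ex vivo. In cultured replicates 1, 2 and 3 they were 7590, 18800 and 19400. Because of those 6 markers, these sums are a description only. The stromal genes Pdgfra and Dcn stayed close to the filter's floor in all 5 arrays. In the same fit 6 macrophage markers were lower in culture, C1qa, C1qb, Mrc1, Fcna, Cd5l and Slc40a1, and Cd68 was higher. Of all tested genes 0.611% were lower. Each array measured RNA pooled from many cells, so fewer cells of a type and less RNA per cell cannot be told apart.

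Across the measured autophagy and mitophagy genes, culture left 1 call among the chosen probe sets. Bnip3 rose in culture within experiments, and it stood apart from all 38 others. Next in size came Sqstm1 at 0.70 and Atg10 at -0.65 (log2 change within experiments), neither of which passed the test. Without the block, limma called none of the 39 members at an adjusted p under 0.05, and 5 had an unadjusted p under 0.05. Of all 13578 tested genes, 0.0147% were called higher and 0.0442% lower in that fit, and 909 had an unadjusted p under 0.05. With the experiment as a block, 1 member was higher and none lower, against 1.13% and 0.611% of all tested genes. In this fit 10 of the 39 members had an unadjusted p under 0.05 in limma, beside 2348 of the 13578 tested genes. The median change of the members within experiments was 0.00 on the log2 scale, with a range from -0.65 to 2.06, and that of all tested genes was -0.05. Cultured arrays were above the ex vivo array of their own experiment in all 3 comparisons for 8 members and below it in all 3 for 9, against 18.9% and 29.7% of all tested genes. For 6 members every cultured array was above both ex vivo arrays and for 5 every one was below, against 7.79% and 13.0% of all tested genes.

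**Figure D1:**
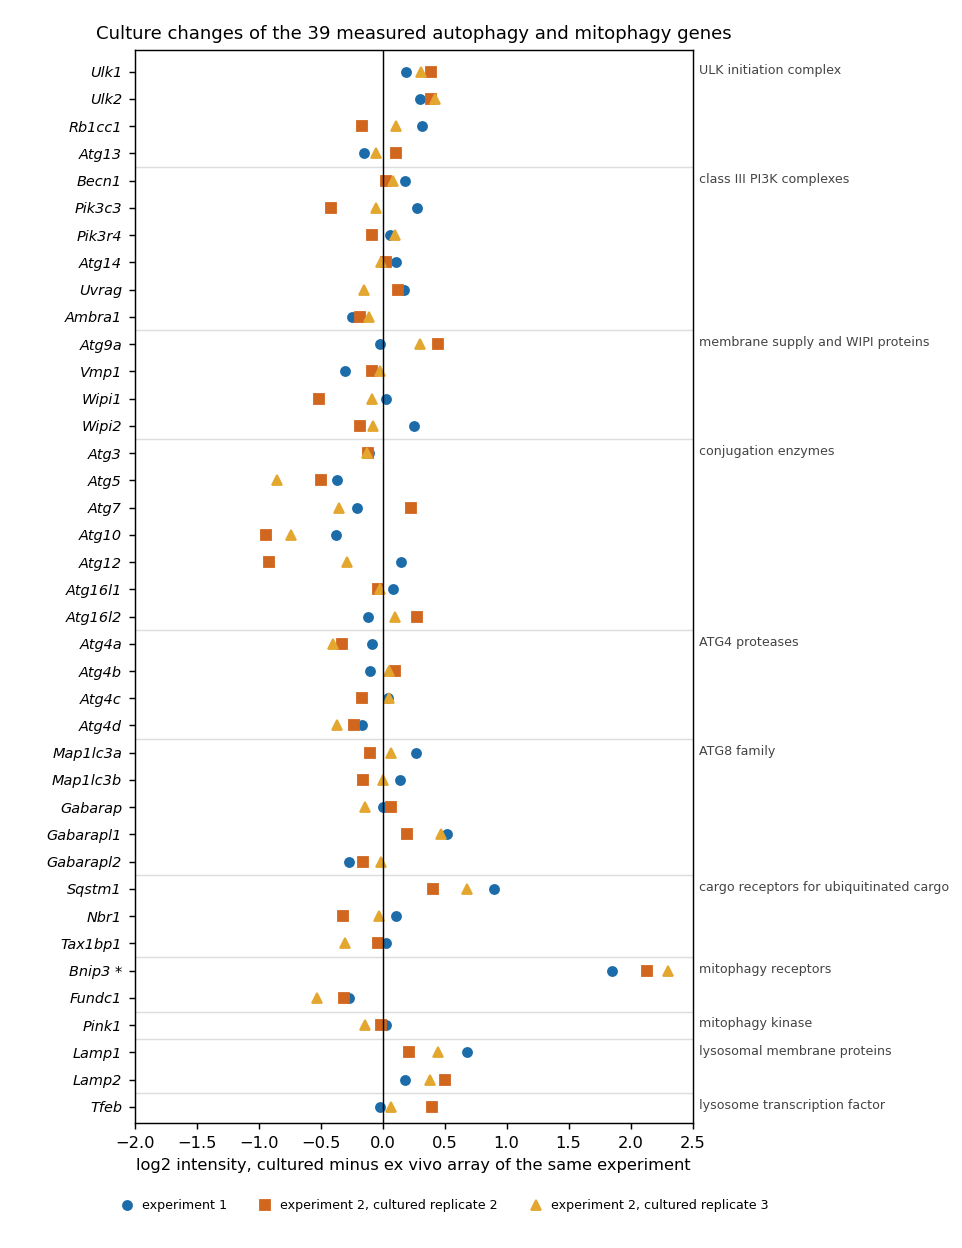
Change in culture for each of the 39 measured genes, as log2 intensity of each cultured array minus the ex vivo array of the same experiment (1 point per cultured array, genes grouped by role, an asterisk marking the gene that passed limma's test with the experiment as a block). Bnip3 lies at 1.85, 2.13 and 2.30, while every other point lies between -0.94 and 0.90.

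Of the 39 members, Bnip3 had the largest change. Its level was 7.83 and 7.78 in the ex vivo arrays of experiments 1 and 2 and 9.68, 9.91 and 10.08 in cultured replicates 1, 2 and 3 (log2 intensity, the array order used throughout). Every cultured array lay above both ex vivo arrays, and the means of 7.80 ± 0.03 (SD, n = 2) and 9.89 ± 0.20 (SD, n = 3) were far apart next to the spread within either group. The change within experiments was 2.06 (SE 0.14, 95% confidence interval 1.72 to 2.40, adjusted p = 0.00551, limma with the experiment as a block), a 4.16-fold increase. Without the block it was 2.08 (SE 0.16, adjusted p = 0.0593, limma), which missed the threshold. Of the 13578 tested genes, 62 had a higher change within experiments. With 2 arrays against 3, an exact permutation test of a single gene cannot go below a two-sided p of 0.1. The call with the block was lost without the ex vivo array of experiment 1, that of experiment 2 or cultured replicate 1 (adjusted p of 0.221, 0.41 and 0.221, at changes of 2.21, 1.85 and 2.21) and stayed without cultured replicate 2 or 3 (0.0148 and 0.0208).

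The upstream sequence of Bnip3 is shown because Bnip3 carries the only culture call among the chosen probe sets, beside those of Sqstm1 and Lamp1, the members with the next largest increases. Each line gives the 250 bases before the annotated start of the gene, 5′ to 3′ on its own strand, from RefSeq on GRCm38.p6: Bnip3 at chr7:138909507-138909756 (minus strand), Sqstm1 at chr11:50210821-50211070 (minus strand) and Lamp1 at chr8:13158911-13159160 (plus strand). Capitals mark ACGTG and GCGTG, the core letters of the hypoxia response element, on either strand.
Bnip3: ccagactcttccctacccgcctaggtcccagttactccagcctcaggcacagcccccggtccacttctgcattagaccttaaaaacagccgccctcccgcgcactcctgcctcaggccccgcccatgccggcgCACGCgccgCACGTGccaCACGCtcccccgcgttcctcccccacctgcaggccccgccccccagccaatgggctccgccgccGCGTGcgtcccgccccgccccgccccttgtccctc
Sqstm1: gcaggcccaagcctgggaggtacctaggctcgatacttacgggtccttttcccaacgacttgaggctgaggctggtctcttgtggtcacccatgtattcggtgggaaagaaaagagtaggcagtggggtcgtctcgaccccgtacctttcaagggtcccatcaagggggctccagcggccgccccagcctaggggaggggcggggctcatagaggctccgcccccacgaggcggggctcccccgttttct
Lamp1: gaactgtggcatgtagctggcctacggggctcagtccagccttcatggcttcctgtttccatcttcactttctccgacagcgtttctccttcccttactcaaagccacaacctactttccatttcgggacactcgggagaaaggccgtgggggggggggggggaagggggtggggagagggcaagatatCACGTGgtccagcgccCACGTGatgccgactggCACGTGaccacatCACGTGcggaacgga
The Bnip3 window held ACGTG 2 times, both within 1 palindrome CACGTG from base -108 to -103 before the start, and GCGTG 3 times, the nearest from base -35 to -31. The Sqstm1 window held neither. The Lamp1 window held ACGTG 8 times, on both strands of 4 copies of CACGTG, the letters of the E-box that TFEB and related factors can bind. Of 32851 RefSeq windows of this length, 16.6% held ACGTG, 28.2% held GCGTG and 6.02% held CACGTG. Among the 41 windows of the measured members, 13 held ACGTG, 24 held GCGTG and 5 held CACGTG, so these letters were not particular to Bnip3. These matches describe letters only and are not measurements of binding.

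Other genes known to respond to hypoxia were measured beside Bnip3. Of the 10 tested whose ex vivo signal was not under the filter's floor in both arrays, 7 rose in culture within experiments (adjusted p under 0.05, limma with the block) and none fell. The shares of all tested genes were 1.13% and 0.611%. The largest change among them was that of Ankrd37, at 6.81 and 7.39 ex vivo and 9.06 to 10.09 in culture (change 2.48, adjusted p = 0.00377). Ndrg1 rose by 1.99 and Adm, under the floor in the ex vivo array of experiment 1, by 2.23. Egln3, an oxygen-sensing prolyl hydroxylase, was under the floor in both ex vivo arrays, at 5.14 and 5.49, and stood at 7.63, 7.82 and 7.60 in culture. It passed the filter only through the cultured arrays, so its change is a description. This list was drawn up with earlier results of these arrays known, so its direction is no independent evidence. Stromal transcripts moved with the same contrast. Their summed intensity was 18800 and 19400 in cultured replicates 2 and 3 and 7590 in cultured replicate 1. These sums include the 6 markers under the floor in both ex vivo arrays and are a description only. The log2 change of Bnip3 was 2.13 and 2.30 in cultured replicates 2 and 3, which differed by 0.17 from each other, and 1.85 in replicate 1. Its culture change differed between the experiments by 0.36 in the interaction model, which did not pass the test. The part of stromal RNA in the Bnip3 change was not tested.

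**Figure D2:**
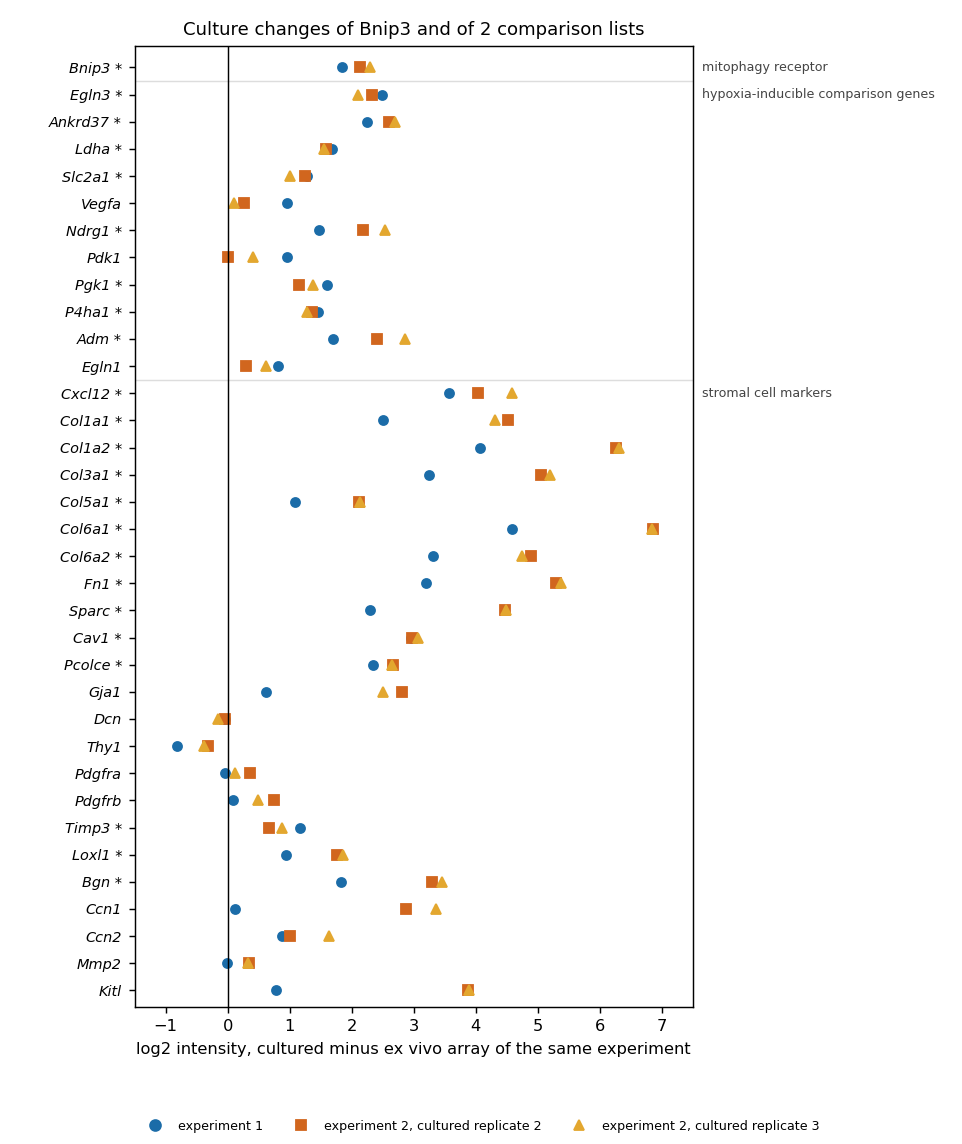
Change in culture of Bnip3, of 11 hypoxia-inducible genes and of 23 stromal cell markers, as log2 intensity of each cultured array minus the ex vivo array of the same experiment (asterisks mark genes that passed limma's test with the block, of which Egln3, Cxcl12, Col3a1, Col6a1, Col6a2 and Cav1 were under the filter's floor in both ex vivo arrays). Bnip3 lies at 1.85 in experiment 1 and at 2.13 and 2.30 in experiment 2. Col1a2, Col6a1 and Kitl lie further to the right in the cultured arrays of experiment 2 than in that of experiment 1.

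Fundc1, the other measured mitophagy receptor, had a change opposite in sign to that of Bnip3. It stood at 9.36 and 9.61 ex vivo and at 9.09, 9.30 and 9.08 in culture. Every cultured array was below both ex vivo arrays, by a narrow margin, and the change of -0.35 (SE 0.12, interval -0.66 to -0.04, adjusted p = 0.224, limma with the block) did not pass the test. A second probe set of Fundc1 gave -0.13 and another 0.08, so its probe sets differed in direction. Pink1 stood at 12.16 and 11.77 ex vivo and at 12.19, 11.76 and 11.63 in culture, a change of -0.03 (SE 0.11, interval -0.31 to 0.25).

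The core ATG genes showed no call in culture. The 14 measured members whose symbols begin with Atg had median changes of -0.11 in cultured replicate 1, -0.08 in replicate 2 and -0.09 in replicate 3, against 0.79, 0.91 and 0.88 for the receptors Bnip3 and Fundc1. The receptors minus the core genes came to 0.90, 0.99 and 0.97. This difference is a description without a test, and a median over 2 genes that moved in opposite directions is set by Bnip3. With Pink1 counted among them, the difference was 0.14, 0.07 and -0.05. Taken over the 30 members of the wider machinery, from the ULK complex to the ATG8 proteins, the median changes were 0.03, -0.09 and -0.02. None of the 14 core genes was higher in all 3 cultured arrays and 5 were lower in all 3, which were Atg3, Atg4a, Atg4d, Atg5 and Atg10, beside 18.9% and 29.7% of all tested genes, so the lower count is close to the share of genes at large. For 13 of the 14, the 95% confidence interval of the change lay within 1 of 0 on the log2 scale, that is, within a 2-fold change in either direction.

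In the ULK initiation complex, which starts autophagosome formation downstream of mTORC1 and AMPK, no member passed the culture test, and the changes ran from -0.04 to 0.36. Ulk2 stood at 8.27 and 7.99 ex vivo and at 8.57, 8.38 and 8.41 in culture (change 0.36, SE 0.11, adjusted p = 0.166, limma with the block). Ulk1 stood at 10.51 and 10.44 ex vivo and at 10.69, 10.83 and 10.74 in culture (change 0.28, SE 0.11, adjusted p = 0.265). For both kinases every cultured array lay above both ex vivo arrays at the chosen probe set. The further tested probe sets of Ulk2 gave 0.00 and -0.29, so its probe sets differed in direction, and that of Ulk1 gave 0.22. The scaffold genes Rb1cc1 and Atg13 changed by 0.12 and -0.04.

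The class III PI3K complexes produce the lipid PI3P at the forming membrane. None of their 6 members passed the culture test, and their changes ran from -0.19 to 0.11. Becn1, the Beclin 1 subunit, changed by 0.11 and Ambra1, a Beclin 1 regulator, by -0.19. The further probe sets of Becn1 gave -0.39, -0.22, 0.06 and -0.26 and those of Ambra1 0.29 and 0.33, so both genes differed in direction between probe sets. Pik3c3, the lipid kinase itself, changed by -0.02 (SE 0.18, interval -0.47 to 0.43). Among the membrane suppliers and PI3P-binding WIPI proteins, the changes ran from -0.16 to 0.20, with Atg9a, a membrane scramblase, at 9.24 and 8.92 ex vivo and 9.22, 9.36 and 9.22 in culture.

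The conjugation enzymes attach ATG12 to ATG5 and ATG8 proteins to phosphatidylethanolamine, and the lowest changes of the whole set were found among them. Atg10, the E2-like enzyme for ATG12, stood at 6.19 and 6.56 ex vivo and at 5.81, 5.61 and 5.81 in culture. Every cultured array lay below both ex vivo arrays, and the change was -0.65 (SE 0.15, interval -1.02 to -0.27, adjusted p = 0.11, limma with the block). Atg10 was dim, with cultured replicate 2 under the filter's floor. Atg5 stood at 10.45 and 9.91 ex vivo and at 10.08, 9.41 and 9.06 in culture. It was lower in each cultured array than in the ex vivo array of the same experiment, but cultured replicate 1 lay above the ex vivo array of experiment 2, so the groups overlapped. The change of Atg5 was -0.54 (SE 0.15, interval -0.93 to -0.16, adjusted p = 0.156, limma with the block), and its other probe sets gave -0.36 and -0.74. Atg7, the E1-like enzyme, stood at 8.46 and 8.92 ex vivo and at 8.25, 9.15 and 8.56 in culture, a change of -0.12 (SE 0.19) whose direction differed between the cultured arrays. Of the other members, Atg12 had the widest interval, -0.92 to 0.36, and Atg16l2 the highest change, 0.06.

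The ATG4 proteases, which trim ATG8 proteins and release them from membranes, changed by -0.25 to 0.00. Atg4a and Atg4d were lower in every cultured array than in both ex vivo arrays, by -0.25 (SE 0.12) and -0.24 (SE 0.11), and did not pass the test. A second probe set of Atg4d gave 0.19, the opposite direction. Of the ATG8 family, Gabarapl1 was the highest, at 9.54 and 9.59 ex vivo and 10.06, 9.79 and 10.07 in culture (change 0.42, SE 0.13, adjusted p = 0.195, limma with the block), without overlap of the groups. Gabarapl2 changed by -0.16. Map1lc3b, which encodes the autophagosome marker LC3B, gave different answers by probe set. Its brightest probe set stood at 11.07 and 12.11 ex vivo and at 11.21, 11.95 and 12.11 in culture (change 0.01, SE 0.12). Its dimmest stood at 9.64 and 8.51 ex vivo and at 8.87, 7.39 and 7.27 in culture (change -1.01, SE 0.14, adjusted p = 0.0354, limma with the block). That was the only further probe set of any member to pass the test. No single direction can be given for Map1lc3b. Over all members, 24 of 49 further tested probe sets shared the sign of the one chosen.

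**Figure D3:**
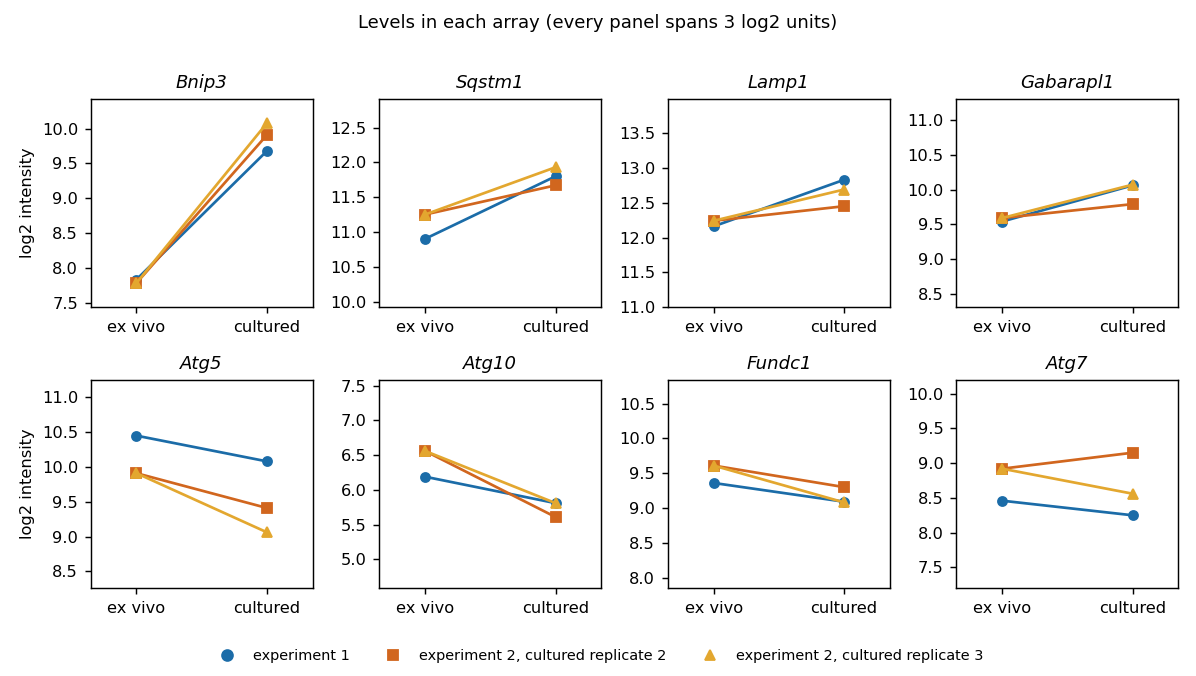
Level of 8 genes in each array (log2 intensity, lines join each cultured array to the ex vivo array of the same experiment, every panel spanning 3 log2 units). Bnip3 rises from 7.83 and 7.78 to between 9.68 and 10.08. The lines of Sqstm1, Lamp1 and Gabarapl1 slope up less steeply, those of Atg5, Atg10 and Fundc1 slope down, and those of Atg7 point both ways, none of these passing the test.

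Among the receptors for ubiquitinated cargo, Sqstm1 had the highest change. It stood at 10.90 and 11.25 ex vivo and at 11.80, 11.67 and 11.93 in culture, so that all cultured arrays lay above both ex vivo arrays. The change was 0.70 (SE 0.15, interval 0.34 to 1.06, adjusted p = 0.0901, limma with the block), 1.62-fold, and missed the threshold, and its second probe set gave 0.63 (adjusted p = 0.0935). With the mean of both probe sets as 1 value per gene, the change was 0.66 and passed (adjusted p = 0.0443). Nbr1 and Tax1bp1, both at high signal, changed by -0.05 and -0.09.

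The lysosomal membrane proteins Lamp1 and Lamp2 were higher in every cultured array than in the ex vivo array of the same experiment. Lamp1 stood at 12.16 and 12.24 ex vivo and at 12.83, 12.45 and 12.69 in culture (change 0.48, SE 0.14, adjusted p = 0.17, limma with the block). Lamp2 changed by 0.33 (SE 0.12, adjusted p = 0.236), and its further probe sets gave 0.31, -0.01 and -0.17. Tfeb, which controls lysosomal genes, stood at 8.34 and 7.64 ex vivo and at 8.32, 8.04 and 7.71 in culture (change 0.13, SE 0.15).

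Further lists of the pathway showed little more. None of 11 other autophagy machinery genes passed the culture test with the block, with changes from -0.23 for Nrbf2 to 0.24 for Atg2a. None of 13 genes for fusion of autophagosomes with lysosomes passed, from -0.32 for Ykt6 to 0.53 for Stx17, the autophagosomal syntaxin. None of 13 other selective receptors passed, from -0.48 for the endoplasmic reticulum receptor Retreg1 to 0.37 for Atl3, and none of 13 mitophagy regulators and mitochondrial dynamics genes, where Fis1 at -0.23 and Pgam5 at -0.22 changed most. Of 23 lysosomal hydrolases and membrane proteins, 1 rose and none fell, against 1.13% and 0.611% of all tested genes. The gene that rose was Ctsl, cathepsin L, at 9.12 and 9.14 ex vivo and 9.86, 9.76 and 9.86 in culture (change 0.70, adjusted p = 0.0471, limma with the block). In this list 13 genes were higher and 1 was lower in all 3 cultured arrays than in the ex vivo array of the same experiment. The shares of all tested genes were 18.9% and 29.7%. The median change of the list was 0.12, beside -0.05 for all tested genes. Macrophages and stromal cells also express cathepsins and LAMP proteins, and the macrophage marker sums of 2470 and 1930 ex vivo and 1980, 1930 and 1600 in culture stand beside the stromal ones given above. The macrophage sums hide opposite moves, with 6 markers lower and Cd68 higher with the block and a median change of -1.42. The part of either cell type in these changes was not tested. Of 14 upstream factors and kinases none passed. Ddit4, an mTORC1 inhibitor induced by stress and hypoxia, stood at 8.96 and 8.23 ex vivo and at 10.99, 8.81 and 9.10 in culture (change 1.28, adjusted p = 0.111), highest in cultured replicate 1, and Sesn3 changed by 0.64 (adjusted p = 0.0764). Foxo1 and Foxo3 changed by -0.06 and -0.12.

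The experiments differed in 14 of the 39 members. For 24 of 39 the difference of experiment 2 from experiment 1 was larger in size than the culture change, and for 14 it was smaller. With culture in the model, 4 members were higher in experiment 2 (Map1lc3b, Vmp1, Gabarapl2 and Uvrag) and 10 were lower (Wipi1, Atg13, Atg5, Atg4c, Rb1cc1, Tfeb, Ambra1, Pink1, Pik3r4 and Becn1) at an adjusted p under 0.05 in limma. Among all tested genes the shares were 11.0% and 14.1%. Wipi1 stood at 11.40 and 11.43 in the ex vivo and cultured arrays of experiment 1 and at 10.47, 9.95 and 10.38 in the ex vivo array and cultured replicates 2 and 3 of experiment 2 (difference -1.12, SE 0.17, adjusted p = 0.00954). Map1lc3b stood at 11.07 and 11.21 in experiment 1 and at 12.11, 11.95 and 12.11 in experiment 2 (difference 0.92, SE 0.12, adjusted p = 0.00701), and Atg13 differed by -0.84 (SE 0.12, adjusted p = 0.00791). For these 3 genes the arrays of the experiments did not overlap. Bnip3 differed by 0.16 (SE 0.14, adjusted p = 0.427).

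**Figure D4:**
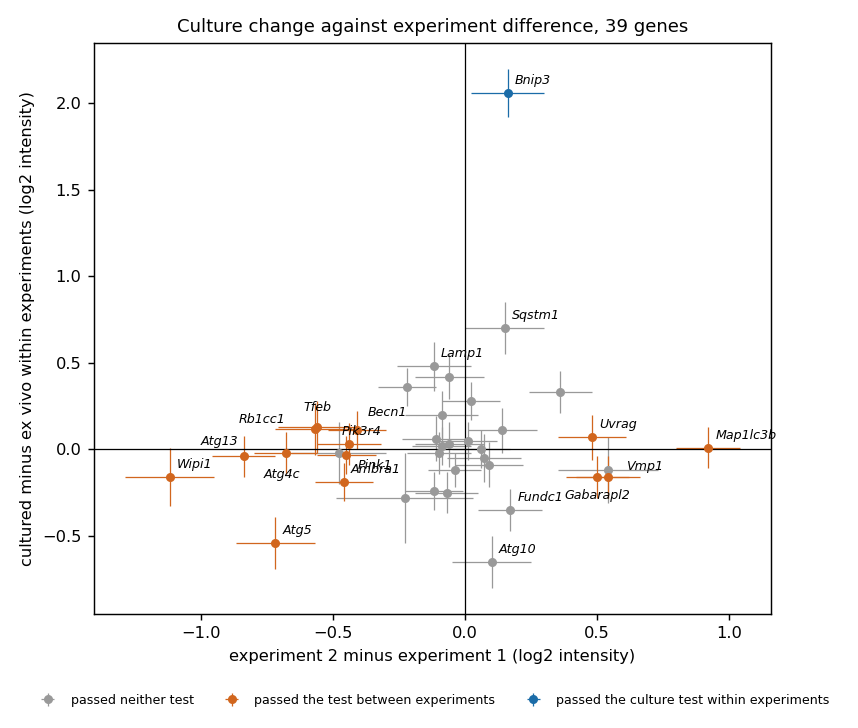
Change in culture within experiments (vertical axis) against the difference of experiment 2 from experiment 1 (horizontal axis), both as log2 intensity, for the 39 measured genes (points are estimates of the limma model with both terms, bars are standard errors). Bnip3 lies high at 2.06 and near 0 sideways at 0.16, whereas Wipi1 at -1.12 and Map1lc3b at 0.92 lie far to the sides and near 0 in height.

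The experiment differences varied between probe sets of the same gene. Of the 14 members that differed, 11 had further tested probe sets, 24 in all, and 12 of these shared the direction of the one chosen. Of the 24, 7 passed the test in the direction of the one chosen and 4 in the opposite direction, the latter in Becn1, Ambra1 and Map1lc3b. A control for RNA quality moved with the experiment. The 3′ control probe set of Actb minus its 5′ one, on the log2 scale and larger in degraded RNA, was 0.31 and 0.77 in the ex vivo and cultured arrays of experiment 1 and -0.12, -0.11 and -0.01 in experiment 2, and that of Gapdh was 0.74 and 0.63 against 0.34, 0.30 and 0.28. Its part in the differences was not tested. For the interaction of culture and experiment, which left 1 residual degree of freedom, limma called 0 members at an adjusted p under 0.05, found 0 with an unadjusted p under 0.05, and called 0% of all tested genes. The median size of the difference between the 2 ex vivo arrays was 0.28 for the members, against 0.12 for the culture change within experiments. The 2 cultured arrays of experiment 2 differed by a median of 0.17. All tested genes had close values, at 0.25, 0.14 and 0.13 in the same order, so this spread was not particular to the members.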

How the data were processed

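RNA was hybridised to Affymetrix mouse 430 2 arrays. The authors ran RMA in the affy package on the scanner signals. GCOS also appears in the submitters' processing notes, and no version is given in the sources used here. RMA intensities were deposited on a linear scale and were used here as log2 values without further normalization. RMA sets the arrays to a common distribution, so a shift shared by most genes would not be seen. Their number, 5 arrays, limits the precision. Of 45037 probe sets other than controls, 34945 carry 1 gene symbol in the platform annotation. Each gene was represented by its single-gene probe set with the highest mean log2 intensity, and levels of different probe sets were not compared. The members, further lists and alternatives were chosen with earlier results of these data known.

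Probe sets that reached an intensity of 50 in 2 or more of the 5 arrays (30477) were fitted in limma 3.58.1 under R 4.3.3 (lmFit, eBayes, Benjamini-Hochberg adjustment over all of them, adjusted p under 0.05), first with culture alone (the methods of the study name limma and this threshold and state no model), and then with the experiment as a block. This second model also gave the experiment difference, and a model with both terms and their product gave the interaction. Standard errors are limma's moderated ones, and the steps were tested on simulated data. Samples were treated as paired by experiment, because the labels give the same experiment numbers to both groups and biological replicates of the study were run on separate days. Deviations from the group means correlated at 0.75 in experiment 1 and at 0.56 and 0.72 in experiment 2. Deviations sum to 0 within each group, so these 3 values are tied to each other and are not separate evidence of pairing. Nothing says that cultured replicates 2 and 3 came from separate cultures, so p-values may in part measure technical spread.

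Genes named are the members called in any model, those with the largest mean change within experiments in each direction in each role group, a fixed set (Atg5, Atg7, Map1lc3b, Sqstm1, Bnip3, Bnip3l, Fundc1, Pink1 and Tfeb), and of each further list up to 4 called genes or the 2 with the largest changes. The others named, such as Ulk1, Atg3, Atg4d, Atg12, Lamp2, Pik3c3 and Nbr1, and the further probe sets were singled out after their values were seen. RefSeq upstream windows matched 33 of the 39 measured members. Alternatives were the block, averaging of cultured replicates 2 and 3, the filter, the normalization, an offset, the moderation, the mean over probe sets, the threshold and leaving out each array. Figures were drawn with matplotlib 3.10.9.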

Additional observations from a re-analysis of the deposited data

How the results depend on the processing

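Bnip3 stayed higher in culture within experiments in all 14 alternatives run, at changes from 1.84 to 2.21, and passed the threshold in 11. It missed it without the ex vivo array of experiment 1, that of experiment 2 or cultured replicate 1 (adjusted p 0.221, 0.41 and 0.221). The filter, the moderation and the threshold leave the fitted change of any member as it is. Bnip3 has 1 single-gene probe set, so the mean over probe sets could not move its change either. Leaving out the ex vivo array of experiment 1 or cultured replicate 1 rests the change on experiment 2 alone. Without the block no member was called higher. With the experiment as a block, with the mean of all probe sets of a gene, or at an adjusted p under 0.1, 1 was, and when each array was left out the count ran from 0 to 1, the 1 being without cultured replicate 1. In all of these no member was called lower. The paired fit, with the experiment as a block, raised the number of all probe sets called higher from 5 to 379 and lower from 9 to 171. Within experiments, members called higher were 2 with the mean of all probe sets of a gene and at an adjusted p under 0.1 (Bnip3 and Sqstm1), and from 0 to 1 when each array was left out. With the 2 cultured arrays of experiment 2 averaged, the probe sets called within experiments fell to 112 higher and 75 lower, and without the filter to 125 and 81. For 16 other members that moved the same way in all 3 cultured arrays, 3 of 223 alternative values turned direction, all with the mean of all probe sets of a gene: Becn1 at -0.14, Ambra1 at 0.14 and Atg3 at 0.06. Members that differed between the experiments were 1 higher and 5 lower with the cultured arrays of experiment 2 averaged, 4 lower with quantile normalization, and 6 lower with the mean of all probe sets. When each array was left out they ran from 0 to 2 higher and from 0 to 5 lower, with 0 without the ex vivo array of experiment 1, that of experiment 2 or cultured replicate 1. The receptors minus the core ATG genes, 0.93 in the fitted changes, came to 0.83 with an offset of 50, 0.98 with the mean of all probe sets, 0.86 against the wider machinery and 0.05 with Pink1 added. The cause of these shifts was not tested, other than that leaving out an array removes a residual degree of freedom. Depth has no counterpart on arrays, and dim genes such as Atg10 lie near the floor.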
